A study of Mus musculus with 3 samples.

Results

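Fibroblasts of the coverings and vessel sheaths of the hypothalamus were picked from single-cell RNA libraries by a rule on 8 marker genes, which 645 of 36467 barcodes (1.77%) met. A barcode, the tag shared by the transcripts of 1 captured cell, had to carry at least 4 of Dcn, Lum, Col1a1, Col1a2, Col3a1, Slc6a13, Pdgfra and Igf2, with Dcn or Col1a2 at 2 or more UMIs (unique molecular identifiers, which tag single captured transcripts). Barcodes with more than 1 of 4 endothelial genes, or with any of 6 genes of mural, microglial, astrocytic, ependymal and oligodendrocytic cells, at 2 or more UMIs were refused. The cells came from hypothalami of 8-week-old male mice, digested with collagenase II, in 3 groups of 1 library each. PF mice had their intake matched to that of the exposed mice and were the control, HS mice were in the heat-exposed state, and QS mice were in recovery after exposure. The labels give no genetic alteration, no strain and no length of recovery, and how many mice were pooled into each library is likewise not stated in these sources. The study asked whether heat exposure leaves lasting differences in the make-up and transcription of hypothalamic cells. With 1 library a group no difference can be set against the spread between animals, so no test was made, and "higher" and "lower" describe these libraries.

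Fibroblasts of the brain's borders lie in the pia, the arachnoid and the dura, and along larger vessels between the smooth muscle and the sheath of astrocyte end-feet. They lay down collagens, laminins and small proteoglycans, make retinoic acid and growth factors, carry transporters that move solutes between cerebrospinal fluid, blood and brain, and release chemokines that act on leukocytes. Cells under heat induce chaperones through heat-shock factors, and many fibroblasts answer interferons with antiviral and antigen-presenting genes.

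PF held 291 fibroblasts among 12645 barcodes (2.30%, 95% interval 2.05 to 2.58), HS 285 among 12305 (2.32%, 2.06 to 2.60) and QS 69 among 11517 (0.599%, 0.466 to 0.758). Intervals here are exact Clopper-Pearson for shares and exact conditional binomial for ratios, and cover counting error only. The HS share was 1.01 times (0.852 to 1.19) the PF share, whereas the QS share was 0.260 times (0.197 to 0.340) the PF share and 0.259 times (0.196 to 0.338) the HS share. Among other cells of the same vessels and borders, barcodes marked as pericytes had a QS/PF ratio of shares of 1.0 (0.846 to 1.19), smooth muscle 0.681 (0.602 to 0.769) and border-associated macrophages 0.555 (0.428 to 0.716). Barcodes with at least 3 of 6 markers at 2 or more UMIs of the pituitary, a tissue attached below the hypothalamus, came to 49 in the PF, 48 in the HS and 0 in the QS library (QS/PF ratio of at most 0.0858). The pituitary-marked barcodes were thus also lower in QS, but further so than the fibroblasts as a whole (0.260, 0.197 to 0.340). The part of tissue dissection or digestion in the fibroblast count was not tested.

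The libraries held 100727912 (PF), 103891747 (HS) and 93295920 (QS) UMIs, of which the fibroblasts gave 1947079, 2171628 and 396239. Fibroblasts had medians of 6471, 7413 and 5087 UMIs, 2863, 3118 and 2510 genes and 2.46%, 2.37% and 2.19% mitochondrial UMIs. Scrublet, a doublet caller, marked 3, 2 and 2 of them. The pairs of libraries shared 37 (HS and PF), 51 (QS and PF) and 40 (QS and HS) barcodes, and 0 of these were fibroblasts in both. At the edge of the rule, barcodes that met every other condition with 3 markers numbered 21, 17 and 9 and had medians of 3, 4 and 1 Dcn UMIs, while those with 4 markers numbered 19, 12 and 6 and had medians of 20, 26 and 3.5. The exclusion genes refused 67, 80 and 34 barcodes with 4 or more markers. Thinned to 2000 UMIs a cell (9, 12 and 4 shallower fibroblasts left out), Dcn was found in 98.9%, 99.6% and 96.9% of fibroblasts (99.7%, 100% and 98.6% unthinned), against 3.66%, 3.65% and 0.718% of endothelial barcodes (10.6%, 10.7% and 1.74% unthinned), whose median depths of 5861.5, 5945 and 5580 UMIs were like those of the fibroblasts. Dcn helped to choose the fibroblasts, so its share in them is a description and no check of the rule.

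The fibroblasts fell into a pair of populations with different genes, and these were present in different proportions in QS. Clustering of the 645 cells gave 7 sub-clusters, 5 of them large. Sub-clusters 2 and 4 carried Slc6a13, a transporter of GABA and taurine, with Igf2 and Lama1, and are called Slc6a13-high here. Sub-clusters 0, 1 and 3 had little of these and carried Mgp, a matrix protein that restrains calcification, and are called Mgp-high. Sub-cluster 5 (9 cells) was led by the pericyte genes Higd1b and Rgs5 and sub-cluster 6 (5 cells) by the macrophage genes Pf4 and Mrc1, so these cells carried RNA of other types and were put in neither population. The populations were set after the clusters had been seen.

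The PF library held 97 Slc6a13-high fibroblasts, the HS library 83 and the QS library 49, or 0.767%, 0.675% and 0.425% of barcodes, with a QS/PF ratio of 0.555 (0.385 to 0.790). Mgp-high fibroblasts came to 190, 197 and 15, or 1.5%, 1.60% and 0.130% of barcodes, with a QS/PF ratio of 0.0867 (0.0476 to 0.147). Between HS and PF the counting intervals of both ratios held 1, at 0.879 (0.648 to 1.19) and 1.07 (0.869 to 1.31). Slc6a13-high cells were therefore 33.3% of PF, 29.1% of HS and 71.0% of QS fibroblasts. A split by Slc6a13 alone, without clusters, gave 112, 91 and 55 cells with 2 or more Slc6a13 UMIs (QS/PF 0.539, 0.383 to 0.751) and 179, 194 and 14 cells with 0 or 1 (QS/PF 0.0859, 0.0460 to 0.148). Of Slc6a13-high cells 92.8%, 91.6% and 98.0% had 2 or more Slc6a13 UMIs, so this split largely picks the same cells. It is no separate support for the ratios. Sub-clusters 0 and 1 held 62 and 71 PF cells and 100 and 68 HS cells but 1 QS cell each, and 13 of the 15 Mgp-high cells of QS lay in sub-cluster 3.

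**Figure D1:**
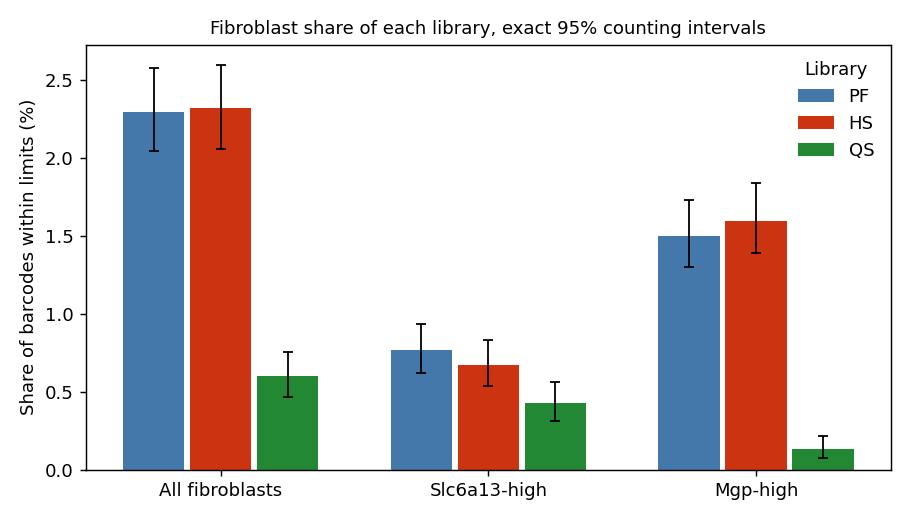
Share of barcodes that were fibroblasts, and of the Slc6a13-high and Mgp-high populations, in the PF, HS and QS libraries, in percent with exact 95% counting intervals as bars. The QS library has fewer of both, with Mgp-high cells at 0.130% against 1.5% in PF and Slc6a13-high cells at 0.425% against 0.767%.

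The label of the cells, meningeal and perivascular, was set against marker lists. Slc6a13 was part of the rule, yet after thinning it was found in 94.4%, 93.2% and 91.3% of Slc6a13-high fibroblasts and in 11.2%, 7.18% and 28.6% of Mgp-high ones (unthinned 96.9%, 97.6% and 98.0%, and 17.4%, 15.2% and 46.7%), against 0.390%, 0.399% and 0.0718% of endothelial barcodes (unthinned 0.978%, 0.803% and 0.515%). Most PF and HS members thus had little of it. Pericyte barcodes carried it too, in 35.5%, 33.3% and 32.7% after thinning (45.7%, 48.2% and 50.8% unthinned), so it is not particular to fibroblasts. The summed level of 4 dural markers (Fxyd5, Dkk2, Smoc2, Mgp) was 4148, 4969 and 2151 CPM in Mgp-high cells of PF, HS and QS and 489, 378 and 392 in Slc6a13-high cells, where CPM is a gene's UMIs summed over the cells of a library, divided by the sum over all genes and scaled to the same total in each library. Mgp makes up nearly all of that sum, since its own level was 3983, 4897 and 1892 CPM in Mgp-high and 370, 255 and 304 CPM in Slc6a13-high cells. The 4 arachnoid markers, of which Aldh1a2 makes retinoic acid, summed to 386, 252 and 366 CPM in Slc6a13-high and to 43.8, 31.8 and 31.2 CPM in Mgp-high cells, and Aldh1a2 alone was 322, 200 and 340 CPM of the former. The 5 markers of the arachnoid barrier ran the other way at a low level, at 86.9, 59.6 and 40.3 CPM in Slc6a13-high and 181, 158 and 62.4 CPM in Mgp-high cells. The 4 pial or perivascular markers (S100a6, Ngfr, Lama1, Lama2) summed to 3425, 3762 and 3612 CPM and to 3309, 3055 and 4511 CPM, but members went opposite ways. Lama1 was higher in Slc6a13-high cells, and Lama2 was at 772, 1073 and 677 CPM in them against 1497, 1436 and 1840 CPM in Mgp-high cells. Since single genes carry these sums, the populations are named by their leading genes and not by a layer.

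Of the 8 genes of the rule, whose levels chose the cells and are given as description, the matrix genes were similar in all 3 libraries. Dcn, for decorin, a proteoglycan that binds collagen fibrils, stood at 15369 CPM in PF, 14041 in HS and 12008 in QS. Col1a1, a chain of type I collagen, stood at 1053, 1106 and 1075 CPM, Col1a2 at 1097, 1178 and 1100, Col3a1 at 676, 619 and 739, and Lum, for lumican, at 921, 933 and 901. Pdgfra, the receptor for PDGF-A, stood at 459, 439 and 515 CPM. Slc6a13 and Igf2, the genes that divide the populations, were higher in QS, at 563, 460 and 1529 CPM and at 229, 181 and 454 CPM. Within Slc6a13-high cells Slc6a13 was at 1990, 2115 and 2039 CPM, nearly level across the libraries. The plot of marker levels shows each population beside the other.

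**Figure D2:**
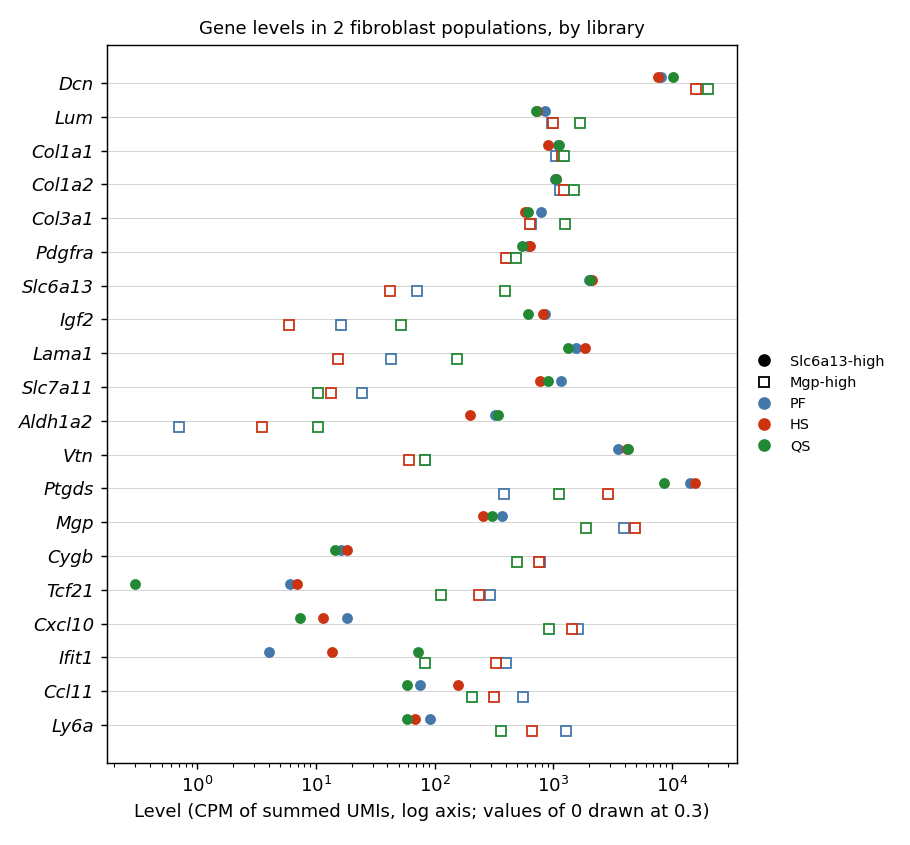
Level of marker and leading genes in Slc6a13-high and Mgp-high fibroblasts of each library, in CPM of summed UMIs on a log axis, with 1 point per library and population. The populations are apart at Slc6a13, Igf2, Lama1, Mgp and Cxcl10 in all 3 libraries, and close at Col1a1.

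The populations were set apart by parts of several gene lists. Among 4105 genes compared, 113 (2.75%) were at least 4 times higher in Slc6a13-high cells in both PF and HS, and 115 (2.80%) at least 4 times higher in Mgp-high cells. These genes took part in the clustering, so the figures describe the split and are no test of it. Of 14 solute carriers 8 were among those of Slc6a13-high cells and 0 among those of Mgp-high cells, and the list summed to 6353, 6003 and 5812 CPM against 1274, 1135 and 1528. Slc7a11, the cystine-glutamate exchanger, stood at 1157, 778 and 904 CPM against 24.7, 13.5 and 10.4. Slc6a20a, a carrier of proline and glycine, stood at 673 CPM in PF, 560 in HS and 483 in QS, against 4.24 in PF and 10.0 in HS. Slc22a8, an organic anion transporter, stood at 305, 310 and 304 CPM against 8.47, 13.5 and 31.2.

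Slc6a13-high cells also carried the retinoic acid enzyme gene Aldh1a2 at 322, 200 and 340 CPM, against 0.706, 3.53 and 10.4 in Mgp-high cells. Igf2, a growth factor, was at 849, 814 and 608 CPM against 16.2, 5.89 and 52.0, and Il34, a ligand of the macrophage receptor Csf1r, at 574, 640 and 545 CPM against 19.1, 13 and 52.0. Lama1, a laminin chain of the pial basement membrane, was at 1543, 1869 and 1340 CPM against 43.1, 15.3 and 156. Bmp6 was at 882, 959 and 600 CPM against 36.0, 37.1 and 20.8. Of 15 transcription factors 4 were 4 times higher in Slc6a13-high cells, with Zic1 at 421, 381 and 355 CPM against 33.2, 20.6 and 114 and Tbx18 at 471, 491 and 641 against 40.2, 21.8 and 197. Ptgds, which makes prostaglandin D2 and is a known product of the leptomeninges, was at 14278, 15657 and 8513 CPM in Slc6a13-high cells, where 1 cell held 15.4% of the PF, 15.9% of the HS and 21.9% of the QS UMIs. Vtn, used as a pericyte marker, was at 3535, 4179 and 4293 CPM in Slc6a13-high and 83.3, 61.2 and 83.1 CPM in Mgp-high cells, and over all fibroblasts it made up 1035, 934 and 3584 CPM of the 1108, 1015 and 3929 CPM summed over 6 pericyte markers.

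Mgp-high cells carried interferon and antigen-presentation genes. Of 19 interferon-response genes 8, and of 10 antigen-presentation genes 6, were at least 4 times higher in them, and 0 of either list were so in Slc6a13-high cells. The interferon list summed to 9845, 7476 and 5529 CPM against 2515, 2186 and 2397, and the antigen list to 7674, 5735 and 3596 CPM against 1448, 1048 and 2017. Cxcl10, a chemokine for activated T cells and a known interferon target, was at 1624, 1440 and 915 CPM against 18.2, 11.5 and 7.32. In the 15 QS cells 1 cell held 47.7% of those Cxcl10 UMIs. H2-K1, a class I MHC heavy chain, was at 2235, 1632 and 1206 CPM against 372, 280 and 384. Other leading genes were Cygb, for cytoglobin, at 769, 765 and 499 CPM against 16.2, 18.4 and 14.6, and the transcription factor Tcf21 at 295, 236 and 114 CPM against 6.07 in PF and 6.88 in HS. Piezo2, a mechanically gated channel, was at 381 CPM in PF and 282 in HS with 0 UMIs in Slc6a13-high cells of both, so it was at least 62.8-fold and 41.0-fold higher, with 3 UMIs a library taken as the floor.

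Within each population the sub-clusters differed in immediate-early and signalling genes. In the Slc6a13-high population, sub-cluster 4 was led by Ccn1 and Amotl2, a pair of known targets of YAP signalling, at 2211 and 517 CPM against 268 and 143 in sub-cluster 2. Fos, an immediate-early transcription factor gene, was at 9467 CPM in sub-cluster 4 and 1350 in sub-cluster 2, and the 25 immediate-early genes summed to 42749 and 7516 CPM. In the Mgp-high population, sub-clusters 0 and 1 had immediate-early sums of 38123 and 42520 CPM and sub-cluster 3 had 16077 CPM. Immediate-early genes are known to be induced by tissue digestion, and its part in these sums was not tested. Sub-cluster 1 had the highest interferon sum of the 5, 10337 CPM, with Cd274, which codes for PD-L1, at 276 CPM and Ly6a, a surface protein of stem-like mesenchymal cells, at 1499 CPM. Sub-cluster 0 was led by Cav1 and the IGF-binding protein gene Igfbp6, at 112 and 755 CPM, and sub-cluster 3 by Lhfpl2 and the complement gene C7, the latter at 134 CPM.

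The heat-exposed library was compared with the control first. Genes were compared where the mean level over the libraries was at least 50 CPM with at least 100 UMIs, and were counted where the ratio was 1.5 or more either way and its interval excluded 1. Over all fibroblasts 123 of 4098 genes passed in HS/PF (3%), 61 higher (1.49%) and 62 lower (1.51%), and the median log2 ratio over all compared genes was -0.02. Heat-shock and chaperone genes were higher in HS fibroblasts, with 7 of 20 compared list members past the threshold in that direction (7 of 20 beside 1.49% of all genes), 0 lower and a median log2 ratio of 0.46. The list summed to 8161 CPM in PF, 12999 in HS and 8480 in QS.

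Hsph1, a co-chaperone of Hsp70 that releases its nucleotide, was at 173 CPM in PF, 385 in HS and 192 in QS, an HS/PF ratio of 2.23 (1.97 to 2.54). HS alone was high. The gene lies on chromosome 5, 149614287 to 149636376 on the minus strand of GRCm38. Hspa1b, an inducible Hsp70, was at 578, 1411 and 886 CPM (2.44, 2.28 to 2.61), and Hspa1a at 961, 1859 and 1161 CPM (1.94, 1.83 to 2.05). This pair is near-identical in sequence, so how counts were divided between them is uncertain. Hsp90ab1, the constitutive cytosolic Hsp90, was at 1211, 2109 and 1221 CPM (1.74, 1.66 to 1.83), and Dnaja1, a co-chaperone of Hsp70, at 584, 942 and 482 CPM (1.61, 1.5 to 1.74). The small heat-shock protein gene Hspb1 was at 405, 615 and 363 CPM (1.52, 1.39 to 1.66) and the mitochondrial chaperonin gene Hspd1 at 178, 268 and 169 CPM (1.51, 1.32 to 1.72). Hsph1, Hspa1a, Hsp90ab1, Dnaja1, Hspb1 and Hspd1 did not pass in QS/PF, with ratios from 0.825 to 1.21, while Hspa1b did (1.53, 1.35 to 1.73), with 33.3% of its QS UMIs in 1 cell. Of the 20 compared, 1 was higher and 2 were lower in QS/PF, with a median log2 ratio of 0.02.

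In Slc6a13-high cells 5 of 15 list members passed as higher, with a median log2 ratio of 0.32, where 100 of 2598 genes (3.85%) passed as higher, 92 (3.54%) as lower and 192 (7.39%) either way. These cells shifted between sub-clusters, with 61 PF and 43 HS cells in sub-cluster 2 and 36 and 40 in sub-cluster 4. The list summed to 3942 CPM in sub-cluster 2 and 9474 in sub-cluster 4, and the part of this shift was not tested. In Mgp-high cells 6 of 20 passed, with a median of 0.44, where 94 of 3830 genes (2.45%) passed as higher, 81 (2.11%) as lower and 175 (4.57%) either way. The Mgp-high cells were spread differently over sub-clusters, with 62, 71 and 57 PF cells and 100, 68 and 29 HS cells in sub-clusters 0, 1 and 3, where the list summed to 14099, 11299 and 7347 CPM. Within sub-cluster 0 alone, the largest, the list's median was 0.48 and Hsph1 had an HS/PF ratio of 1.62. Hsph1 was at 115, 268 and 157 CPM in the former population (HS/PF 2.33, 1.68 to 3.25) and at 194 CPM in PF and 408 in HS in the latter (2.10, 1.82 to 2.42). Thinned to 2000 UMIs, Hsph1 was found in 24.5% of PF, 45.4% of HS and 15.4% of QS fibroblasts (47.8%, 69.1% and 43.5% unthinned), against 54.7%, 57.7% and 48.3% of endothelial barcodes (73.7%, 77.8% and 66.7% unthinned), which express it too. No order of QS and PF is read from these shares, because 1 cell held 28.9% of the QS UMIs and the CPM went the other way. In 8 other classes of barcodes of the same libraries, picked by marker genes, the list's HS/PF median was between 0.11 and 0.33 and above 0 in 8 of 8, and Hsph1 ratios ran from 1.03 to 1.62. Over all fibroblasts the values of 0.46 and 2.23 were above all 8. Within Slc6a13-high cells the list's 0.32 was under the microglial 0.33, while the Mgp-high 0.44 was above all 8. Hsph1 was above all 8 in both populations, but its 1.62 in sub-cluster 0 equalled the microglial 1.62. These differences were not tested.

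The starts of these genes were searched for the heat-shock element, because its factor is the known activator of the list. The letters searched were GAANNTTC, which read the same on both strands, in the 250 bases before each gene's start, in RefSeq sequence of GRCm38.p6. Of 32851 such windows 6.69% held them, and of the 22 list members 18 were matched to a window and 7 held them. A list gene with several starts was counted once, by the window with most matches, and 4163 genes had 2 or more windows. The list count is thus favoured over the share of single windows. Of the 7 members higher in HS, 6 were matched and 5 held them (Hspa1a, Hspa1b, Dnaja1, Hspb1 and Hspd1), Hsph1 did not in this window and Hsp90ab1 was not matched. A match of letters is a description of the sequence and not a binding site. The 140 bases before the start are given for 4 of them, on the strand of the gene and from 5′ to 3′, with the matching letters in capitals. They are Hspa1b (chr17:34959239-34959378, minus strand), Dnaja1 (chr4:40722328-40722467, plus strand), Hspb1 (chr5:135887779-135887918, plus strand) and Hspd1 (chr1:55087933-55088072, minus strand).
Hspa1b: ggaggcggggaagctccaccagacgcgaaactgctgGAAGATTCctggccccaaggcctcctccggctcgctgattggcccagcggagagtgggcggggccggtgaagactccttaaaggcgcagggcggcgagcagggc
Dnaja1: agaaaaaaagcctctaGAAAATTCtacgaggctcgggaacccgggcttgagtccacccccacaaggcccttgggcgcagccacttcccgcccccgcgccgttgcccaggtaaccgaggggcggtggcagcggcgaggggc
Hspb1: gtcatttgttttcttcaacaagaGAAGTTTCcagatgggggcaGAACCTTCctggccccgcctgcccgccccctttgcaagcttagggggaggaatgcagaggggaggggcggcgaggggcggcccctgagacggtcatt
Hspd1: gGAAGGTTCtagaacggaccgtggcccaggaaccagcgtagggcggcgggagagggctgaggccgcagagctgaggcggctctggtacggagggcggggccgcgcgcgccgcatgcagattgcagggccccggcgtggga
The match begins 104 bases before the start in Hspa1b, 124 in Dnaja1 and 139 in Hspd1, and Hspb1 holds 2, at 117 and 97 bases.

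Cirbp, a cold-inducible RNA-binding protein whose RNA is known to fall with rising temperature, was lower in HS. Its level was 196 CPM in PF, 88.4 in HS and 202 in QS, an HS/PF ratio of 0.452 (0.378 to 0.539), with PF and QS alike (QS/PF 1.03). The gene lies on chromosome 10, 80165985 to 80172786 on the plus strand of GRCm38. It was lower in both populations, at 233, 122 and 212 CPM in Slc6a13-high cells (HS/PF 0.523, 0.370 to 0.730) and at 186 CPM in PF and 80.7 in HS in Mgp-high cells (0.433, 0.350 to 0.534). The other members of this list of 3, Rbm3 and the splicing factor Srsf5, stood at 334, 278 and 308 CPM and 448, 330 and 444 CPM and did not pass over all fibroblasts. Rbm3 passed in Slc6a13-high cells, at 263, 156 and 326 CPM (0.593, 0.436 to 0.802). In the 8 other classes the Cirbp ratio was between 0.584 and 0.849, below 1 in 8 of 8.

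Zbtb16, a zinc-finger transcription factor and known target of the glucocorticoid receptor, was higher in HS fibroblasts. Its level was 72.4 CPM in PF, 174 in HS and 25.2 in QS (HS/PF 2.40, 1.97 to 2.93, and QS/PF 0.349, 0.164 to 0.660), so HS was above and QS below PF. In Slc6a13-high cells it was at 91.0, 401 and 25.6 CPM (4.41, 3.16 to 6.27) and in Mgp-high cells at 65.6 CPM in PF and 117 in HS (1.78, 1.38 to 2.30), and within sub-cluster 0 alone its ratio was 1.22, under the threshold. Thinned to 2000 UMIs, it was found in 11.3% of PF, 28.2% of HS and 4.62% of QS fibroblasts (32.0%, 50.2% and 13% unthinned), and in 6.27%, 30.7% and 1.69% of endothelial barcodes (19.3%, 58.2% and 5.63% unthinned). Of 8 other classes, 7 had ratios between 2.14 and 7.86, with endothelial barcodes at 5.41 (5.08 to 5.78), and ependymal barcodes, with few UMIs of the gene, had 1.09 (0.374 to 3.07). Zbtb16 lies on chromosome 9, 48654297 to 48836222 on the minus strand.

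Zbtb16 was the only gene of 16 compared in the glucocorticoid list to pass over all fibroblasts in HS/PF (higher, against 1.49% of all genes), and the list's median log2 ratio was 0.22. Among Slc6a13-high cells 4 of 14 passed as higher and 1 as lower, with a median of 0.40, beside 3.85% and 3.54% of all genes. Ddit4, an inhibitor of mTORC1, was at 38.4, 163 and 40.3 CPM there (4.24, 2.53 to 7.45), from 19 UMIs in PF and 71 in HS. It was under 50 CPM in PF and QS and met the filter on the mean only through HS. Nothing is therefore read from its call, which is among the 4. Cebpd was at 178, 353 and 307 CPM (1.99, 1.52 to 2.61) and Klf9 at 334, 507 and 289 CPM (1.52, 1.24 to 1.87), while Bcl6, a transcriptional repressor, was lower at 146, 94 and 43.9 CPM (0.646, 0.429 to 0.961). In Mgp-high cells 2 of 16 passed as higher, Zbtb16 and Mt2, and 1 as lower, Bcl6, beside 2.45% and 2.11% of all genes. Ddit4 and Cebpd there had HS/PF ratios of 0.856 (0.619 to 1.18) and 0.830 (0.772 to 0.893). The glucocorticoid list summed to 3428 CPM in sub-cluster 2 and 7450 in sub-cluster 4. Sub-cluster 2 held 61 PF and 43 HS cells and sub-cluster 4 held 36 and 40, and the part of this shift was not tested. The difference between the populations in these genes was not tested either.

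**Figure D3:**
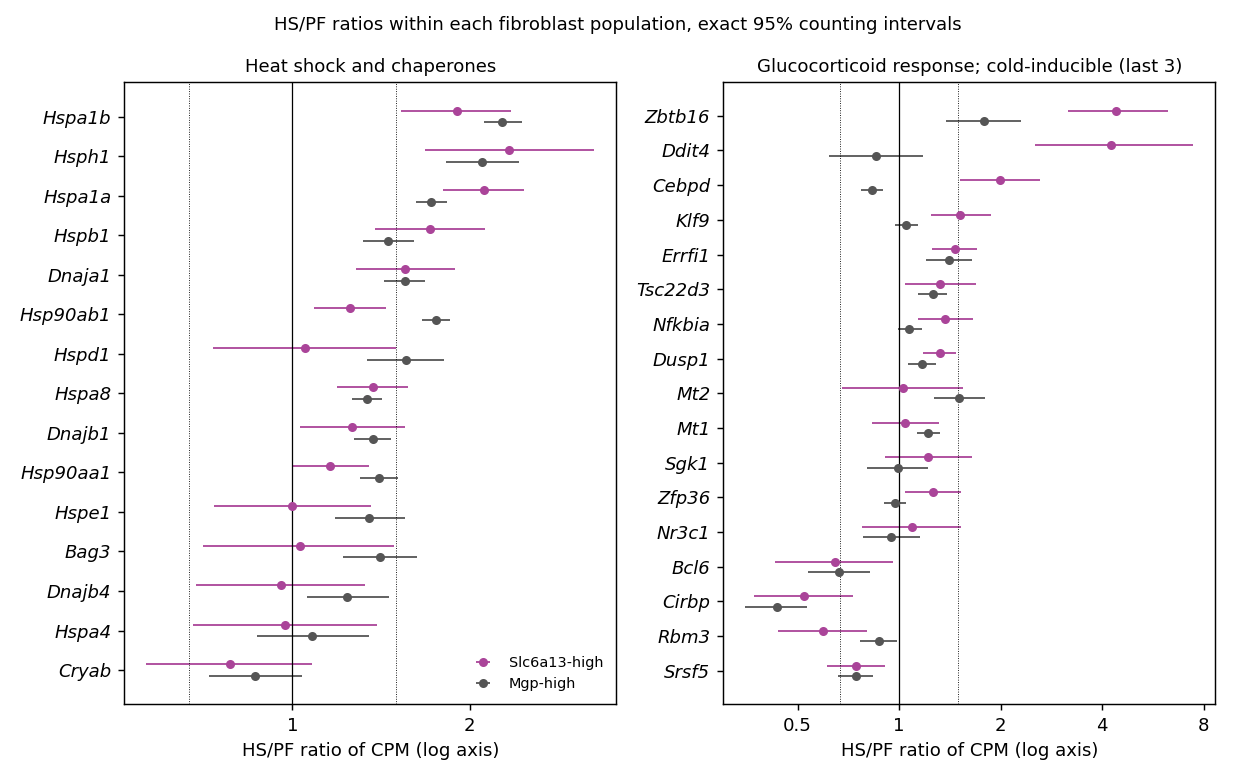
HS/PF ratios of CPM with exact 95% counting intervals on a log axis, for heat-shock genes (left) and glucocorticoid and cold-inducible genes (right), in Slc6a13-high and Mgp-high fibroblasts, with dotted lines at 1.5 times either way. Hsph1 and Hspa1b lie above 1 and Cirbp below 1 in both populations, and Zbtb16 is at 4.41 in Slc6a13-high and 1.78 in Mgp-high cells.

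Of the matrix genes, the collagens, proteoglycans and laminins with a call in HS/PF were 1, 2 and 1, beside 3% of all genes called either way. Of 21 collagens compared, 1 passed as higher, Col25a1, at 4.11 CPM in PF, 32.7 in HS and 131 in QS, where 1 cell held 62.5%, 62.0% and 98.1% of its UMIs, and 0 passed as lower. Of 28 proteoglycan and matricellular genes 0 were higher and 2 lower, which were Postn and Fmod. Postn, for periostin, was at 46.2, 9.67 and 134 CPM (HS/PF 0.209, 0.124 to 0.339) from 90, 21 and 53 UMIs, and Fmod, for fibromodulin, at 44.2, 23.9 and 149 CPM. Lama4, a laminin chain of vessel basement membranes, was the 1 laminin of 6 that passed, at 112, 64.5 and 116 CPM (0.576). Col25a1, Postn and Fmod were under 50 CPM in both libraries compared and met the filter on the mean only through QS, so nothing is read from their calls. Of 16 matrix proteases and inhibitors 2 passed as higher. These were Adamts9, a versican-cleaving protease, at 89.4, 145 and 85.8 CPM (1.62), and A2m, at 15.9, 37.3 and 151 CPM, which likewise met the filter through QS, with 88.3% of its QS UMIs in 1 cell. Aldh1a2 was at 83.2, 44.2 and 237 CPM (HS/PF 0.531, 0.408 to 0.688) and stayed lower within Slc6a13-high cells (0.621, 0.472 to 0.811), and Slc7a11 was at 328, 168 and 633 CPM (0.512, 0.449 to 0.583) but did not pass within them (0.672, 0.586 to 0.770).

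Interferon and antigen genes leaned lower in HS, with medians of -0.24 and -0.37, and 1 was higher and 2 lower of 20 and 1 higher and 2 lower of 11, beside 1.49% of all genes higher and 1.51% lower. Irf7, a transcription factor of the interferon response, was at 114, 60.3 and 37.9 CPM (HS/PF 0.531, 0.425 to 0.663). In Mgp-high cells, which hold most of this RNA, Irf7 was at 148 CPM in PF and 72.4 in HS (0.489, 0.388 to 0.613), Ifi27l2a at 632 and 320 (0.507, 0.455 to 0.564) and Ly6a at 1271 and 663 (0.522, 0.484 to 0.562). Rsad2, for the antiviral enzyme viperin, went the other way, at 72.9, 128 and 15.1 CPM over all fibroblasts (1.76, 1.43 to 2.17), and Cxcl10 was level at 1186 CPM in PF and 1129 in HS (0.952, 0.899 to 1.01). The list therefore did not move in 1 direction. In the 8 other classes the interferon median was between -0.46 and 0.71.

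Some other genes passed in 1 population. In Slc6a13-high cells the calcium sensor gene Stim1 was at 283, 606 and 194 CPM (HS/PF 2.14, 1.74 to 2.64), Gas6, a ligand of TAM receptors, at 78.9, 170 and 128 CPM (2.15, 1.44 to 3.26) and the clock repressor Nr1d1 at 127, 41.3 and 76.9 CPM (0.324, 0.181 to 0.554). Stim1 in Mgp-high cells had a ratio of 0.911 (0.706 to 1.18), Gas6 1.04 (0.815 to 1.34) and Nr1d1 1.24 (0.911 to 1.70). In Mgp-high cells the endoplasmic reticulum chaperone genes Hspa5 and Pdia4 were higher, at 1095 CPM in PF and 1793 in HS (1.64, 1.54 to 1.74) and 40.2 and 84.8 CPM (2.11, 1.54 to 2.92), among 3 of 17 stress genes of that compartment, beside 2.45% of all genes higher. Vcam1, an adhesion molecule for leukocytes, was at 106 and 196 CPM (1.85, 1.52 to 2.26), and Wdr95 was at 28.2 and 106 CPM (3.75, 2.65 to 5.43). Pdia4, which is among the 3 of 17, and Wdr95 were under 50 CPM in PF. They met the filter on the mean of PF and HS only through HS, so nothing is read from their calls.

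The calls of the populations were set side by side. Of 2376 genes compared in both, 171 passed in Slc6a13-high and 72 in Mgp-high cells, and 11 passed the same way, 6.43% of the former and 15.3% of the latter, while 3 passed in opposite directions. The 6 higher in both were Hsph1, Hspa1a, Hspa1b, Dnaja1, Zbtb16 and Pim1, a kinase gene. Those lower in both included Cirbp, Bcl6, AY036118 and the myelin gene Mbp. Mbp belongs to oligodendrocytes, whose 6 markers summed to 391, 199 and 384 CPM over all fibroblasts, and the part of free RNA in its ratios was not tested.

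One HS fibroblast barcode stood apart. It held 72996 UMIs, 3.36% of the HS fibroblast sum, where the next deepest held 24153, and it had 9 Dcn UMIs and 789 of Chga, a granule protein of endocrine cells. The 6 pituitary markers summed to 36.5 CPM in PF, 620 in HS and 10.1 in QS fibroblasts, and this barcode held 98.5% of the HS Chga UMIs and 94.7% of those of Cga. Gh, another of the 6, was found in 22.8% of HS fibroblasts, 23.5% of HS endothelial and 26.2% of HS microglial barcodes unthinned. After thinning these were 7.33%, 7.86% and 7.65%, and in PF and QS all were 0. The part of free RNA in this was not tested. The deepest barcode held 3 Gh UMIs, lay among the Mgp-high cells, in sub-cluster 0, and was not marked by Scrublet. The HS/PF comparisons within Mgp-high cells and within sub-cluster 0 include it and were not repeated without it. Without this barcode 104 genes passed in HS/PF over all fibroblasts, beside 123 of 4098 (3%) with it, and 97 were among the 123. The HS/PF ratios were then 2.29 for Hsph1, 0.450 for Cirbp and 2.48 for Zbtb16.

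Recovery was compared with control next. Over all fibroblasts 821 of 4098 genes passed in QS/PF (20%), 425 higher (10.4%) and 396 lower (9.66%), and the median over all compared genes was 0.06. Both comparisons use the PF library. The lists that divide the populations were among those far apart. Of 14 solute carriers 8 were higher and 0 lower, with a median log2 ratio of 0.89. Of 20 interferon genes 0 were higher and 16 lower, with a median of -1.53, and of 11 antigen genes 1 was higher and 10 lower, with a median of -1.60. The 1 was Cd74, a chaperone of class II MHC, and nearly all its QS UMIs lay in 1 cell. Cxcl10 was at 1186 CPM in PF and 232 in QS (0.196, 0.157 to 0.241), Angptl1 at 242 and 5.05 (0.0208, 0.00251 to 0.0756), and Tbx18 at 151 and 492 (3.26, 2.71 to 3.92).

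Slc6a13-high cells were then compared on their own, with 61, 43 and 26 cells of sub-cluster 2 and 36, 40 and 23 of sub-cluster 4 in PF, HS and QS. Here 267 of 2598 genes passed (10.3%), 118 higher (4.54%) and 149 lower (5.74%). There the solute carriers had a median of -0.12 with 1 higher and 1 lower of 12, the 4 interferon genes with enough UMIs a median of 0.13 with 1 higher, and the 4 antigen genes a median of -0.02 with 0 passing. Slc1a3, a glutamate transporter, shows the pattern, at 313 and 608 CPM over all fibroblasts (QS/PF 1.94) and 819 and 802 CPM within Slc6a13-high cells (0.979). H2-D1, a class I MHC heavy chain, was at 1624 and 449 CPM over all fibroblasts (0.277) and 319 and 326 CPM within (1.02). The Mgp-high population had 15 QS cells and 96218 UMIs and was not compared in QS.

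**Figure D4:**
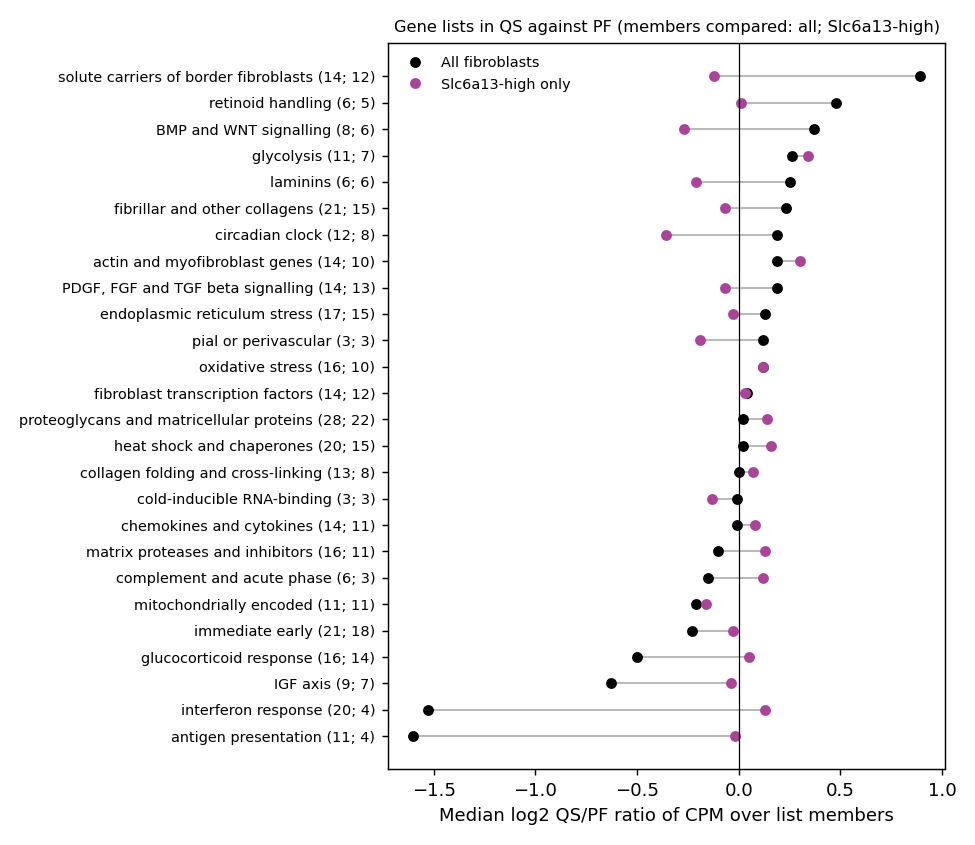
Median log2 QS/PF ratio of CPM over the compared members of 26 gene lists, over all fibroblasts and within Slc6a13-high fibroblasts, joined by a line for each list. The interferon and antigen lists lie at -1.53 and -1.60 over all fibroblasts and at 0.13 and -0.02 within Slc6a13-high cells, and the solute carriers at 0.89 and -0.12. Joined points are not over the same genes, with 20 interferon and 11 antigen genes over all fibroblasts and 4 and 4 within Slc6a13-high cells.

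Of the 267 genes that passed in QS/PF within Slc6a13-high cells, 75 were among the 821 of all fibroblasts. Those 821 were 20% of all genes compared, and the Slc6a13-high cells are part of that sum. Zbtb16 was at 91.0 CPM in PF and 25.6 in QS (0.282, 0.107 to 0.629), from 45 and 7 UMIs, and Bcl6 at 146 and 43.9 (0.302, 0.149 to 0.560). In the glucocorticoid list 1 of 14 was higher, Cebpd at 178 and 307 CPM (1.73, 1.27 to 2.36), and 4 were lower, with a median of 0.05. Of all genes compared in these cells 4.54% were higher and 5.74% lower. The forkhead gene Foxp2 was at 154 and 51.2 CPM (0.333, 0.174 to 0.594) and the junction scaffold gene Magi1 at 144 and 47.6 (0.331, 0.168 to 0.604). Hes1, a Notch target, was at 138 and 304 CPM (2.21, 1.58 to 3.09), the glucose transporter Slc2a1 at 80.9 and 132 (1.63), and Adm, for adrenomedullin, at 121 and 190 (1.57, 1.06 to 2.31). The heat-shock list had 0 higher and 1 lower of 15, with a median of 0.16. Markers of other cells in the sums also differed, with 5 neuronal markers at 464, 511 and 898 CPM and 3 B-cell markers at 3.08, 3.68 and 58.0 CPM over all fibroblasts, and 1001, 1168 and 1204 CPM and 2.02, 2.29 and 84.2 CPM in Slc6a13-high cells, and their part in the QS values was not tested. The 6 endothelial markers stood at 247, 223 and 217 CPM and the 6 microglial ones at 290, 257 and 278 CPM. Among collagens 0 of 15 passed, and Col1a1 was at 1102 CPM in PF and 1124 in QS.

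Against HS, 1058 of 4098 genes passed in QS fibroblasts (25.8%), 565 higher (13.8%) and 493 lower (12%). Of 20 heat-shock genes 11 were lower and 1 higher, with a median log2 ratio of -0.67 beside 0.07 over all genes. The immediate-early list moved with it. Its sum was 29476, 35573 and 23847 CPM in the PF, HS and QS libraries, with 10 of 21 lower and 0 higher in QS/HS (median -0.54) and 2 of 21 higher and 0 lower in HS/PF (median 0.23), and the part of digestion in either list was not tested. Within Slc6a13-high cells 407 of 2598 passed (15.7%), 181 higher (6.97%) and 226 lower (8.70%), and there 6 of 15 heat-shock genes were lower and 1 higher (median -0.37), 7 of 14 glucocorticoid genes were lower and 0 higher (median -0.59), and 2 of 3 cold-inducible genes were higher (median 0.80). In these cells, then, Zbtb16, Stim1 and Hsph1, which stood high in HS, were at 25.6, 194 and 157 CPM in QS. Ddit4, among the 7 lower glucocorticoid genes, was at 40.3 CPM there but met the filter only through HS.

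**Figure D5:**
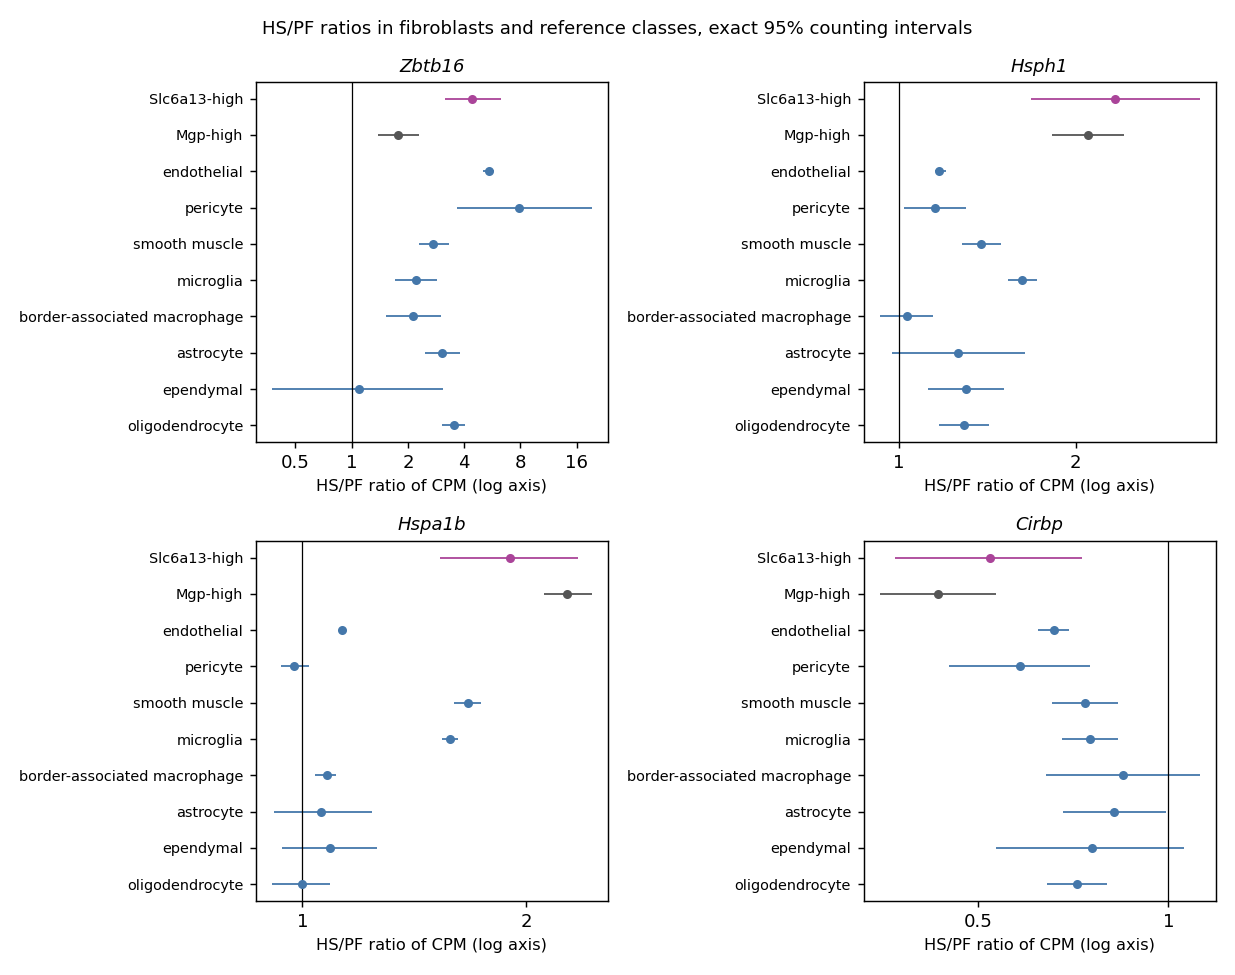
HS/PF ratios of CPM of Zbtb16, Hsph1, Hspa1b and Cirbp in Slc6a13-high and Mgp-high fibroblasts and in 8 other classes of barcodes from the same libraries, on log axes with exact 95% counting intervals. Hsph1 is at 2.33 and 2.10 in the fibroblasts and from 1.03 to 1.62 in the other classes, and Cirbp at 0.523 and 0.433 in the fibroblasts and from 0.584 to 0.849 in the others.

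The interferon genes that part the populations were searched for the interferon-stimulated response element, the known site of the factors that interferon activates. The letters searched were GAAA, any 2 bases and GAAA again, on either strand in the same windows, and 2.98% of the 32851 windows held them. Of 22 list members 19 were matched and 8 held them, counted by the best window of each gene and so favoured over the share of single windows. The 140 bases before the start are shown for 3 that were lower in QS, where Mgp-high cells were few, on the strand of the gene with the matching letters in capitals, and overlapping matches run together. They are Ifit1 (chr19:34640749-34640888, plus strand), Isg15 (chr4:156200819-156200958, minus strand) and Rsad2 (chr12:26456453-26456592, minus strand).
Ifit1: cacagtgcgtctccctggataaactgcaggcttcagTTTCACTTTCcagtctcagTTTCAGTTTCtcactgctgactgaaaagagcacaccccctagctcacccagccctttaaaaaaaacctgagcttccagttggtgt
Isg15: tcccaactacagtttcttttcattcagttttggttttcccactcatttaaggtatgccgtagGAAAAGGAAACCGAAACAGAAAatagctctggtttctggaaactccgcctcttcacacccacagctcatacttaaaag
Rsad2: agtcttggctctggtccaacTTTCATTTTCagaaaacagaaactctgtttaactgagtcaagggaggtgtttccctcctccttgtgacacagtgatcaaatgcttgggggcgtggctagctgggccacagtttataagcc
Ifit1, which blocks translation of viral RNA, was at 292 CPM in PF, 259 in HS and 70.7 in QS over all fibroblasts, and within Mgp-high cells at 400 in PF and 327 in HS. Isg15, a ubiquitin-like modifier, was at 273, 238 and 75.7 CPM over all fibroblasts and at 28.3, 27.5 and 32.9 CPM in Slc6a13-high cells, where it was low in all 3 libraries.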

How the data were processed

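Gene-by-barcode matrices of UMI counts were deposited by the authors for 3 libraries of the hypothalamus, prepared with a 10x 3′ kit. Per the file headers the counts came from Cell Ranger 7.0.1, while per the submitters' processing notes Cell Ranger 5.0.0, Seurat 3.1.2 and mm10 were used, and whether introns were counted is not stated. Barcodes with 500 or more UMIs and at most 20% mitochondrial UMIs were kept. Doublets were handled by the exclusion genes, and Scrublet calls were tried as an alternative.

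UMIs were summed over the fibroblasts of a library and given as CPM. The members and gene lists were chosen with earlier results of these data known. Sub-clusters came from Scanpy 1.11.5 (2000 variable genes, 15 components, 15 neighbours, Leiden at resolution 0.5 with leidenalg 0.10.2). Genes named were the 8 of the rule, the 10 highest and 10 lowest passing ratios of each comparison that met filters on single cells and on other classes, members of each list by ratio and level, and up to 8 leading genes a sub-cluster. Genes singled out beyond these were chosen after their values were seen. Interval code was tested on simulated counts. Positions follow GENCODE M21. A further condition that the labels mention was not analysed here.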

Additional observations from a re-analysis of the deposited data

Results flagged for a closer look

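In HS/PF 3 genes passed in opposite directions in the populations of fibroblasts. Ccl11, a chemokine for eosinophils, was at 74.8 CPM in PF and 158 in HS in Slc6a13-high cells (2.12, 1.40 to 3.24) and at 553 and 314 CPM in Mgp-high cells (0.567, 0.507 to 0.634). Stk39, a kinase of cation-chloride cotransporters, was at 68.8 and 122 CPM in the former (1.77, 1.13 to 2.81) and at 161 and 87.2 CPM in the latter (0.542, 0.437 to 0.669). Trpm3, a cation channel, was at 297 and 128 CPM in the former (0.432, 0.312 to 0.592) and at 62.8 and 305 CPM in the latter (4.86, 3.87 to 6.15), where 1 HS cell held 75.7% of the UMIs. The difference between the populations was not tested, because each group has 1 library.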

How the results depend on the processing

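No paired analysis was possible because each group has 1 library. Alternatives that split or drop cells by population or by Slc6a13 were chosen after seeing the data. With no CPM filter and 30 or more UMIs, 824 genes passed in HS/PF, 1608 in QS/PF and 2091 in QS/HS. This setting compares more genes than the 4098 of the main setting, so its counts are no measure of a higher rate. Among Slc6a13-high cells 192, 267 and 407 of 2598 genes passed (7.39%, 10.3% and 15.7%), of which 22, 75 and 127 were among those of all fibroblasts. Among cells with 2 or more Slc6a13 UMIs 271, 336 and 461 passed. Over all fibroblasts, which include these cells, 3%, 20% and 25.8% of genes passed. In HS/PF 293 passed in the largest sub-cluster, 51 of them among the 123, and 193 among cells with 0 or 1 Slc6a13 UMI. The filter was applied anew to each set of cells, so these counts are over different genes and do not compare rates. The direction turned in Slc6a13-high cells for the gene a in HS/PF (0.829), for the medians of glucocorticoid genes (0.05), interferon genes (0.13) and solute carriers (-0.12) in QS/PF, and for interferon genes (0.04), antigen genes (0.34), solute carriers (-0.10) and collagens (-0.20) in QS/HS. With 2 or more Slc6a13 UMIs it turned for Bach2 in HS/PF (0.985), solute carriers in QS/PF (-0.06) and, in QS/HS, antigen genes (0.27), solute carriers (0.00) and collagens (-0.17). These medians are not over the same genes. Over all fibroblasts 20 interferon and 11 antigen genes were compared, against 4 and 4 in Slc6a13-high cells. The cause was not tested. The share ratios moved between 0.982 and 1.03 (HS/PF), 0.245 and 0.260 (QS/PF) and 0.244 and 0.264 (QS/HS). The largest sub-cluster was not run for QS, which had 1 cell in it. The 69 QS fibroblasts, and the 15 Mgp-high ones among them, limit what QS can show.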

Other observations

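Of 12 circadian genes compared over all fibroblasts 0 passed in HS/PF, with a median log2 ratio of 0.10. Of 14 actin and contractile genes 1 passed in HS/PF, with a median of -0.05, beside 3% of all genes. Within Slc6a13-high cells 2 of 10 passed as higher in QS/PF, beside 4.54% of all genes. One was Vim, for vimentin, at 218, 193 and 384 CPM in the PF, HS and QS libraries (QS/PF 1.76, 1.33 to 2.32), with 35.2% of the QS UMIs in 1 cell. The other was Cnn2, for a calponin, at 119, 110 and 179 CPM.

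Sub-cluster 4 stood apart from sub-cluster 2 within the Slc6a13-high population by Dusp1, a phosphatase of MAP kinases, at 2607 and 295 CPM, and by Egr1, an immediate-early factor, at 2607 and 511 CPM. These genes took part in the clustering, so the values describe the split.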
